A study of Mus musculus with 12 samples.

Results

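This section covers 10 genes of oncostatin M, interleukin-6 (IL-6) and gp130 signalling in wounded skin of diabetic mice. They were taken by symbol from the 29956 named genes of the deposited count table, where all 10 were found. All 10 were among the 18218 genes that passed the filter on low counts. They are the cytokine genes Osm, Il6, Lif and Il11, the receptor genes Osmr, Il6ra, Lifr and Il6st, the transcription factor gene Stat3 and the feedback inhibitor gene Socs3.

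The cytokines of this family share gp130, the receptor chain encoded by Il6st. Oncostatin M signals through gp130 with the oncostatin M receptor, leukaemia inhibitory factor through gp130 with its own receptor, and IL-6 and interleukin-11 through gp130 after binding a private receptor. Janus kinases on these receptors phosphorylate STAT3, which enters the nucleus and switches on genes that include Socs3, whose protein blocks further signalling. In skin wounds, neutrophils, macrophages and T cells are known sources of oncostatin M, and keratinocytes and fibroblasts carry its receptor. Leptin, whose receptor is defective in these mice, uses a related receptor that also signals through STAT3 and is restrained by SOCS3.

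RNA was sequenced from skin of 12 mice, 4 in each of 3 groups, on day 3 after full-thickness punch wounds in the back. Every mouse had the genotype B6.BKS(D)-Leprdb/db and was diabetic, so no group gives a wound without diabetes. Wounds were given the Gram-negative bacterium Alcaligenes faecalis, the Gram-positive skin pathogen Staphylococcus aureus, or, as vehicle, phosphate-buffered saline with glycerol. The 4 samples of the S. aureus group have titles that begin with ARM, while their description (SA) and treatment labels give S. aureus; the latter were followed, and every S. aureus value rests on them. The sex and age of the mice are not given in the sources used here. Libraries held 38.4 to 71.3 M estimated counts (M for mega), with a median of 55.6 M. The summed level of 10 keratinocyte genes, Krt5 and Krt14 among them, was 1005 to 3444 CPM (counts per M) in the 12 libraries, so the epidermal markers of skin were present in each. Vehicle replicate 3 stood apart, with the lowest summed level of 10 neutrophil genes (757 CPM, against 1868 to 15598 CPM in the other 11) and the highest summed level of 8 adipocyte genes (12197 CPM, against 1762 to 5084 CPM).

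Promoter sequence from RefSeq (build GRCm38.p6) was found for 9 of the 10 genes, all but Osm, as windows from 250 bases before to 50 bases after the start. STAT proteins bind palindromes of the form TTCNNNGAA, and AP-1, the Fos and Jun dimer, binds TGANTCA; both strands were searched. The STAT form was present in the window of 1 member, Socs3, and in 8.30% of all 32851 windows. Its narrower version TTCCNGGAA, every match of which also matches the first form, was in no member's window and in 1.15% of all. The AP-1 form was present in windows of 4 members, Il6, Lif, Il11 and Osmr, and in 7.81% of all. The 250 bases before the start are shown for Socs3, the classic STAT3 target, and for the cytokines Il6 and Lif, whose levels were higher with S. aureus than with A. faecalis, with the matched letters in capitals.
Socs3 (chr11:117969367-117969616, minus strand): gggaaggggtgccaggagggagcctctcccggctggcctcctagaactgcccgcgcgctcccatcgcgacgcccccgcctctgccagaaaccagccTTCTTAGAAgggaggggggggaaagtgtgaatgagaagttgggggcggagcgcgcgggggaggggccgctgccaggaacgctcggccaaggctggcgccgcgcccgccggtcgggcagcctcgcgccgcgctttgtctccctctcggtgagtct
Il6 (chr5:30012864-30013113, plus strand): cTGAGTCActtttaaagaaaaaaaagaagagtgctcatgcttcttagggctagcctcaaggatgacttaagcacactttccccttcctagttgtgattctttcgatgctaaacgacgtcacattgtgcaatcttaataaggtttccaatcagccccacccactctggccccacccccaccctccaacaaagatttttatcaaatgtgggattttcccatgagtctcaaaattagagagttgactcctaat
Lif (chr11:4257318-4257567, plus strand): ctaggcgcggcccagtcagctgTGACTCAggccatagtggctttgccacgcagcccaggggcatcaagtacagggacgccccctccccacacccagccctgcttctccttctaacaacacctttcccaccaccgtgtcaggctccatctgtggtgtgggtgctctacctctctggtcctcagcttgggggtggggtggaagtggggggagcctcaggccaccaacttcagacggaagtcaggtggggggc
The matches lay at -154 to -146 relative to the start for Socs3, -249 to -243 for Il6 and -228 to -222 for Lif. A match of letters is a description and shows no binding.

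Differences between groups were tested with edgeR's quasi-likelihood test over all genes, and genes whose p, adjusted by Benjamini-Hochberg, was under 0.05 are named as called. Levels are CPM on TMM-scaled library sizes (the trimmed mean of M-values), as mean ± SD (n = 4), and fold changes are log2 with their standard error (SE) and, where given, 95% interval. In a tissue sample, more cells of a type and more RNA per cell cannot be told apart.

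The largest differences were between the wounds given the 2 bacteria. With S. aureus, Osm, Osmr, Il6 and Lif rose and Lifr fell relative to A. faecalis, while Il6ra, Il6st, Il11, Stat3 and Socs3 were not called. These are 5 of the 10 members called, where 12.7% of all genes tested were called. The groups did not overlap in 6 of the 10 (the 5 called and Stat3), where 23.3% of all genes did not. The median log2 fold change of the 10 was 0.56, against -0.02 over all genes tested.

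Relative to vehicle, Osm and Osmr rose and Lifr fell with S. aureus. That is 3 of 10 members called, where 6.84% of all genes tested were called, and the same 3 were the members without overlap between the groups, where 15.1% of all genes had none. The median log2 fold change of the 10 was 0.55, against -0.04 over all genes. Leaving out S. aureus replicate 3 left 0 members called, leaving out S. aureus replicate 2 or 4 left 1 each, and leaving out vehicle replicate 2 gave 5. Over all genes tested, 1246 of 18218 were called with all 12 libraries. Without S. aureus replicates 2, 3 or 4 it was 451 of 18401, 260 of 18412 and 381 of 18416. Without vehicle replicate 2 it was 1153 of 18424. With only these 2 groups fitted 1 member was called, where 350 of 17806 genes were. DESeq2 and limma-voom each called 5 members, where they called 2876 and 1278 of 18218 genes.

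No member was called between A. faecalis and vehicle by edgeR, where 0.011% of all genes tested were called, and none by DESeq2 or limma-voom. At an unadjusted p under 0.05 there was 1 member, Osm, where 7.68% of all genes tested passed. The groups overlapped in all 10 members, where 4.05% of all genes had no overlap. The median log2 fold change of the 10 was -0.10, against -0.03 over all genes. The 3 comparisons share samples, so they are not independent of each other.

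**Figure D1:**
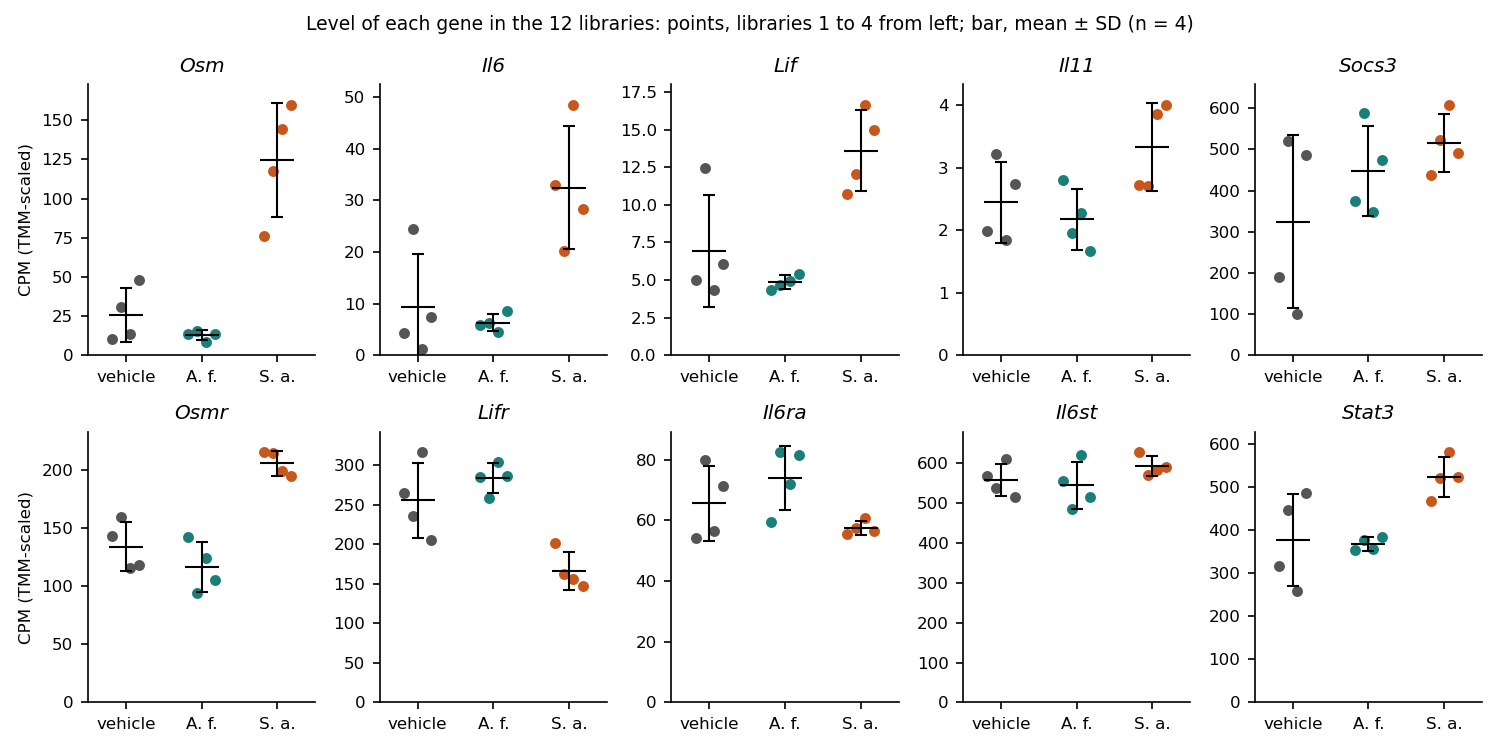
Level of each of the 10 genes in CPM (vertical axes, from 0) in the 12 libraries by group (A. f., A. faecalis; S. a., S. aureus); points are libraries 1 to 4 from left to right and bars are mean ± SD (n = 4), with the lower bar of Il6 in vehicle ending at the axis. The 4 S. aureus points lie above all others for Osm, between 76.4 and 160.1 CPM, and below all others for Lifr, between 147 and 201 CPM.

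Osm encodes oncostatin M. Its level was 10.4, 30.7, 13.6 and 47.9 CPM in vehicle replicates 1 to 4. It was 13.8, 15.6, 8.38 and 13.8 CPM with A. faecalis and 76.4, 118, 144 and 160.1 CPM with S. aureus. Every S. aureus library was above every other library, while 3 A. faecalis libraries lay in the lower part of the vehicle range and replicate 3 lay below it. The rise with S. aureus was a log2 fold change of 2.28 over vehicle (SE 0.44, 95% interval 1.33 to 3.24, adjusted p = 0.0162 by edgeR), or 4.86-fold. The call was lost without S. aureus replicate 3 (adjusted p = 0.0505) and with only the 2 groups fitted (adjusted p = 0.0559). Against A. faecalis it was 3.27 (SE 0.46, 2.28 to 4.27, adjusted p = 0.00179 by edgeR), or 9.67-fold, the highest value of the 30 member comparisons. Between A. faecalis and vehicle the log2 fold change was -0.99 (-1.92 to -0.06, adjusted p = 0.631 by edgeR).

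Like Osm, neutrophil genes as a sum were highest with S. aureus. The summed level of the 10 neutrophil genes was 9787 to 15598 CPM with S. aureus, 1868 to 4376 CPM with A. faecalis and 757 to 9115 CPM with vehicle, and no gene of that list was at 0 in all libraries. With S. aureus the list members S100a8 and S100a9 averaged 4031 and 4706 CPM, where the sum averaged 12255 CPM. On that list 7 of 10 genes rose with S. aureus relative to A. faecalis, and 2 of 10, Camp and Il1r2, relative to vehicle, where 12.7% and 6.84% of all genes tested were called in either direction. For A. faecalis against vehicle, where Osm was at -0.99, none was called by edgeR, with 7 of the 10 below 0 and 3 above. The 3 with an unadjusted p under 0.05 (7.68% of all genes tested) were Retnlg and Ly6g, below 0, and Camp, above it. Within the vehicle group the libraries highest in Osm, replicates 2 and 4, were also the highest in the neutrophil sum (5611 and 9115 CPM, against 2301 and 757 CPM). Vehicle replicates 1 and 3 went the other way, with Osm at 10.4 and 13.6 CPM. Vehicle replicate 4 and S. aureus replicate 1 lay close in the neutrophil sum, at 9115 and 9787 CPM, and had Osm at 47.9 and 76.4 CPM. A. faecalis replicates 2 and 4 had neutrophil sums of 4328 and 4376 CPM with Osm at 15.6 and 13.8 CPM. The macrophage sum was lower with S. aureus, at 4983 to 6098 CPM, than with A. faecalis, at 6279 to 9323 CPM. The S. aureus range lay within that of vehicle, 4230 to 8235 CPM. With S. aureus 3 of its 10 genes fell relative to A. faecalis (12.7% of all genes called) and 1 relative to vehicle (6.84%). In each of these comparisons 8 of the 10 were below 0 and 2, Itgam and Cd14, were above it. The part of these cells in the Osm difference was not tested.

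**Figure D2:**
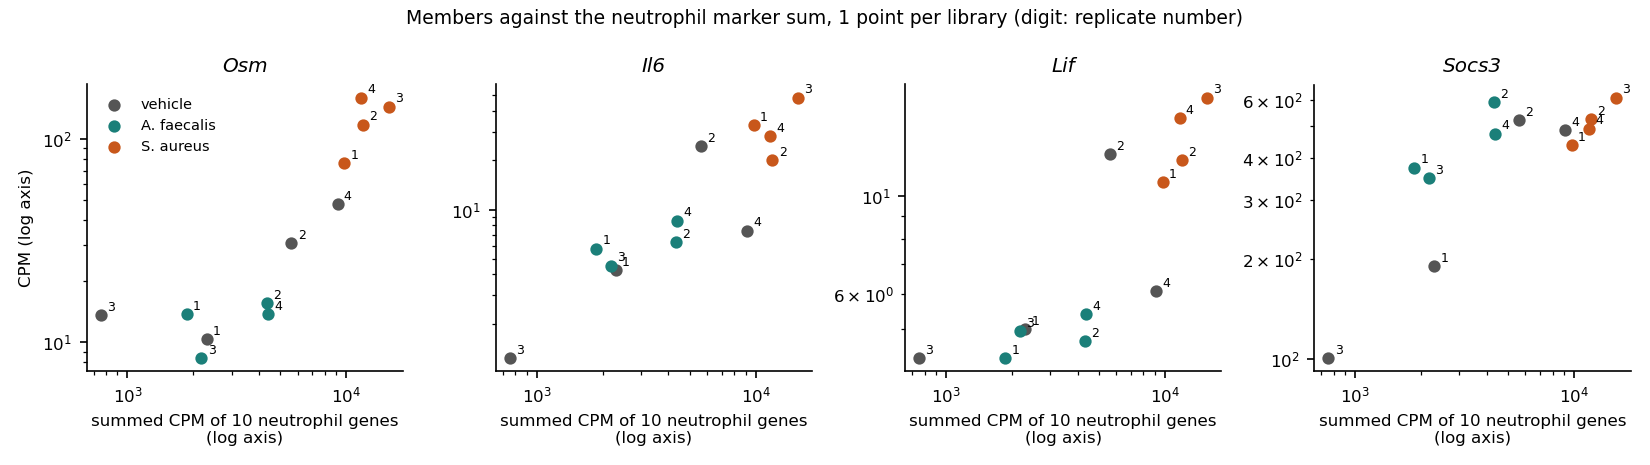
CPM of Osm, Il6, Lif and Socs3 (vertical, log axis) against the summed CPM of the 10 neutrophil genes (horizontal, log axis), 1 point per library with its replicate number, coloured by group. The S. aureus libraries have the highest neutrophil sums, 9787 to 15598 CPM, and the highest Osm; vehicle replicate 3 has the lowest sum, 757 CPM, with the lowest Il6 and Socs3.

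Il6 encodes the inflammatory cytokine IL-6. It was at 4.25, 24.4, 1.23 and 7.43 CPM in the vehicle libraries, at 5.76, 6.30, 4.53 and 8.56 CPM with A. faecalis and at 32.9, 20.1, 48.6 and 28.3 CPM with S. aureus. The S. aureus libraries were above all A. faecalis libraries, but vehicle replicate 2 lay within their range. Relative to A. faecalis the log2 fold change was 2.37 (SE 0.67, 0.90 to 3.84, adjusted p = 0.0399 by edgeR), or 5.17-fold. This call was lost without any 1 of the 8 libraries compared (adjusted p up to 0.107), with no filter on low counts (adjusted p = 0.0572) and with the replicate number as a block (adjusted p = 0.0552). Relative to vehicle it was 1.80 (SE 0.66, 0.36 to 3.24, adjusted p = 0.108 by edgeR), and 2.94 without vehicle replicate 2 (adjusted p = 0.0166). For A. faecalis against vehicle it was -0.57 (-1.99 to 0.85, adjusted p = 0.834 by edgeR), and 0.56 without vehicle replicate 2.

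Lif encodes leukaemia inhibitory factor, and its gene is the next protein-coding gene to Osm on mouse chromosome 11. It was at 5.0, 12.4, 4.31 and 6.08 CPM with vehicle, at 4.31, 4.69, 4.96 and 5.41 CPM with A. faecalis and at 10.7, 12.02, 16.7 and 14.9 CPM with S. aureus. As for Il6, vehicle replicate 2 reached into the S. aureus range and no A. faecalis library did. The log2 fold change of S. aureus over A. faecalis was 1.49 (SE 0.29, 0.85 to 2.13, adjusted p = 0.0079 by edgeR), or 2.81-fold. Over vehicle it was 0.97 (SE 0.29, 0.34 to 1.6, adjusted p = 0.0636 by edgeR), and without vehicle replicate 2 it was 1.43 (adjusted p = 0.00631). DESeq2 and limma-voom called this rise over vehicle (adjusted p = 0.0108 and 0.0304). With A. faecalis against vehicle it was -0.52 (-1.15 to 0.11, adjusted p = 0.683 by edgeR).

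Il11 encodes interleukin-11, a gp130 cytokine tied to fibroblast and epithelial responses. It had the lowest level of the 10 genes per length, from 1.66 to 4.01 CPM over the 12 libraries. Its values were 1.98, 3.22, 1.85 and 2.73 CPM with vehicle, 2.81, 1.95, 2.27 and 1.66 CPM with A. faecalis and 2.72, 2.71, 3.86 and 4.01 CPM with S. aureus. With S. aureus it was at 3.32 ± 0.71 CPM, with A. faecalis at 2.17 ± 0.49 CPM and with vehicle at 2.44 ± 0.65 CPM, and the ranges overlapped. The log2 fold changes of S. aureus were 0.61 over A. faecalis (0.10 to 1.12, adjusted p = 0.108 by edgeR) and 0.45 over vehicle (-0.06 to 0.95, adjusted p = 0.243 by edgeR).

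The receptors for oncostatin M and for leukaemia inhibitory factor moved in opposite directions with S. aureus. Osmr, the signalling partner of gp130 for oncostatin M, was at 143, 159, 116 and 119 CPM with vehicle, at 143, 93.8, 124 and 105 CPM with A. faecalis and at 216, 214, 199 and 195 CPM with S. aureus. The S. aureus libraries were the highest 4 of the 12. The rise was a log2 fold change of 0.62 over vehicle (SE 0.14, 0.32 to 0.92, adjusted p = 0.025 by edgeR) and 0.82 over A. faecalis (SE 0.14, 0.52 to 1.12, adjusted p = 0.00371 by edgeR). The call over vehicle was lost without S. aureus replicates 2, 3 or 4 (adjusted p = 0.0648, 0.0703 and 0.0585).

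Lifr, the receptor for leukaemia inhibitory factor, was at 264, 235, 317 and 205 CPM with vehicle, at 285, 258, 304 and 286 CPM with A. faecalis and at 201, 162, 156 and 147 CPM with S. aureus. The S. aureus libraries were the lowest 4, with S. aureus replicate 1 just under vehicle replicate 4. The fall was -0.62 against vehicle (SE 0.14, -0.92 to -0.32, adjusted p = 0.0249 by edgeR) and -0.77 against A. faecalis (SE 0.14, -1.07 to -0.47, adjusted p = 0.00501 by edgeR). The call against vehicle was lost without vehicle replicate 1 (adjusted p = 0.0554), without S. aureus replicates 2, 3 or 4 (0.0662, 0.0849 and 0.0768) and with only the 2 groups fitted (0.0764). Vehicle replicate 3, the library with the highest adipocyte sum, also had the highest Lifr. The adipocyte sum was 1762 to 3293 CPM with S. aureus, 3300 to 5084 CPM with A. faecalis and 3021 to 12197 CPM with vehicle. None of its 8 genes was called in either comparison by edgeR, with 6 at an unadjusted p under 0.05 against vehicle (27% of all genes tested) and 0 against A. faecalis (28.2%), and its part in the Lifr difference was not tested.

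Osmr and Lifr are neighbouring protein-coding genes on mouse chromosome 15. Their ratio within a library does not depend on how libraries are scaled. The ratio of Osmr to Lifr estimated counts was 0.54, 0.68, 0.37 and 0.58 with vehicle, and 0.50, 0.36, 0.41 and 0.37 with A. faecalis. With S. aureus it was 1.07, 1.33, 1.27 and 1.33. All 4 S. aureus libraries thus had more Osmr than Lifr counts, and none of the other 8 did. The ratio was chosen after the levels were seen and is given with no test. The summed level of 7 endothelial genes was 1353 to 1501 CPM with S. aureus, 852 to 1230 CPM with vehicle and 936 to 1321 CPM with A. faecalis. On that list Pecam1 and Emcn rose over vehicle, where 6.84% of all genes tested were called, and Emcn over A. faecalis, where 12.7% were. Cdh5 was not called, at 0.58 over vehicle and 0.52 over A. faecalis, without overlap in either (adjusted p = 0.0502 and 0.0547 by edgeR). Pecam1 was at 0.35 over A. faecalis, also without overlap (adjusted p = 0.0503 by edgeR). Kdr, Tek, Vwf and Egfl7 were at log2 fold changes of -0.05 to 0.09 against vehicle and 0.03 to 0.16 against A. faecalis. The fibroblast sum overlapped between all groups (19574 to 24729 CPM with S. aureus, 18674 to 30231 CPM with vehicle, 18071 to 21702 CPM with A. faecalis). Of its 8 genes 1 rose and 1 fell with S. aureus against vehicle, where 6.84% of all were called. These were Pdgfra (0.46, adjusted p = 0.0389 by edgeR) and Dpt (-0.97, adjusted p = 0.0472 by edgeR). Over A. faecalis 1 rose, Pdgfra (0.50, adjusted p = 0.0172 by edgeR), where 12.7% were called. The keratinocyte sum of S. aureus, 1312 to 3444 CPM, spanned that of vehicle, 1872 to 2810 CPM, and reached into that of A. faecalis, 1005 to 1681 CPM. With S. aureus against A. faecalis 9 of its 10 genes were above 0. Of these 1 was called, Dsg3 (1.13, adjusted p = 0.0135 by edgeR), where 12.7% of all were. For A. faecalis against vehicle all 10 were below 0 and none was called by edgeR. There 7 had an unadjusted p under 0.05 (7.68% of all genes tested). The part of any of these cells in the Osmr and Lifr differences was not tested.

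**Figure D3:**
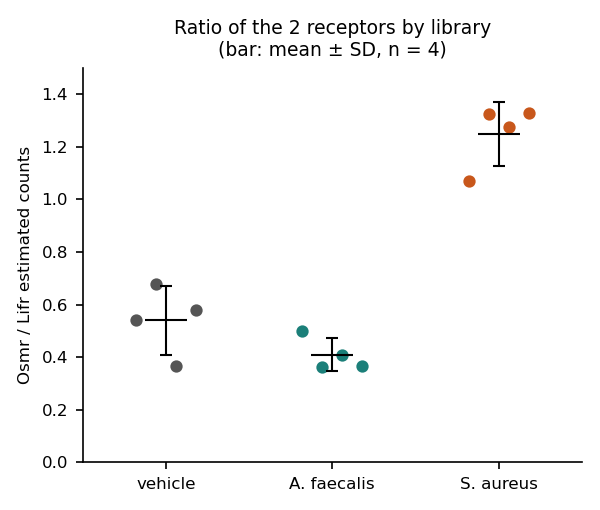
Ratio of Osmr to Lifr estimated counts (vertical axis, from 0) in each library by group, with mean ± SD (n = 4). S. aureus libraries lie at 1.07 to 1.33, vehicle at 0.37 to 0.68 and A. faecalis at 0.36 to 0.50.

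The other receptor chains were called in no comparison. Il6st, the shared gp130 chain, was at 569, 537, 610.3 and 517 CPM with vehicle, at 557, 486, 620.3 and 515 CPM with A. faecalis and at 629, 572, 583 and 592 CPM with S. aureus. The 3 groups overlapped, with means of 558 ± 40.8, 545 ± 58.2 and 594 ± 24.9 CPM. Its log2 fold change was 0.09 for S. aureus against vehicle (-0.12 to 0.30, adjusted p = 0.587 by edgeR), 0.13 for S. aureus against A. faecalis (-0.08 to 0.33, adjusted p = 0.421) and -0.04 for A. faecalis against vehicle (-0.24 to 0.17, adjusted p = 0.941). These intervals were the narrowest of the 10 members. Il6ra, the IL-6 receptor, was at 54.3, 80, 56.6 and 71.4 CPM with vehicle, at 59.6, 82.6, 72.1 and 81.5 CPM with A. faecalis and at 55.5, 57.5, 60.6 and 56.4 CPM with S. aureus. The S. aureus libraries were close together and overlapped the lower A. faecalis and vehicle libraries. S. aureus against A. faecalis gave -0.36 (-0.65 to -0.07, adjusted p = 0.0953 by edgeR), which was called without A. faecalis replicate 1 (adjusted p = 0.0482) and with only the 2 groups fitted (0.0336). Against vehicle the values were -0.19 with S. aureus (adjusted p = 0.391) and 0.17 with A. faecalis (adjusted p = 0.749), both by edgeR.

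Stat3, the transcription factor downstream of gp130, was at 317, 447, 258 and 487 CPM with vehicle, at 354, 378, 356 and 384 CPM with A. faecalis and at 469, 522, 582 and 524 CPM with S. aureus. All S. aureus libraries were above all A. faecalis libraries, while vehicle replicate 4 reached the S. aureus range. The log2 fold change was 0.51 over A. faecalis (SE 0.17, 0.14 to 0.88, adjusted p = 0.0703 by edgeR) and 0.47 over vehicle (SE 0.17, 0.10 to 0.85, adjusted p = 0.102 by edgeR). Both passed without vehicle replicate 4 (adjusted p = 0.0402 and 0.0352) and with DESeq2 (0.0267 and 0.044). The difference from A. faecalis also passed without vehicle replicate 3 (0.0165) and with only the 2 groups fitted (0.00436). These counts measure Stat3 mRNA and hold nothing on STAT3 phosphorylation.

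Socs3, the feedback inhibitor, was called in no comparison. It was at 190, 520, 101 and 487 CPM with vehicle, at 375, 589, 349 and 475 CPM with A. faecalis and at 439, 523, 609 and 492 CPM with S. aureus. Vehicle replicates 1 and 3 were the lowest of the 12 libraries, and the other 10 lay between 349 and 609 CPM whatever the treatment. The log2 fold change was 0.67 for S. aureus over vehicle (-0.24 to 1.57, adjusted p = 0.327 by edgeR) and 0.46 for A. faecalis over vehicle (-0.44 to 1.37, adjusted p = 0.784). Between the bacteria it was 0.21 (-0.70 to 1.11, adjusted p = 0.784), where Osm differed by 3.27. That interval is wide and holds both no difference and a rise of 2-fold. Vehicle replicates 1 and 3 were also the lowest vehicle libraries in the neutrophil sum.

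**Figure D4:**
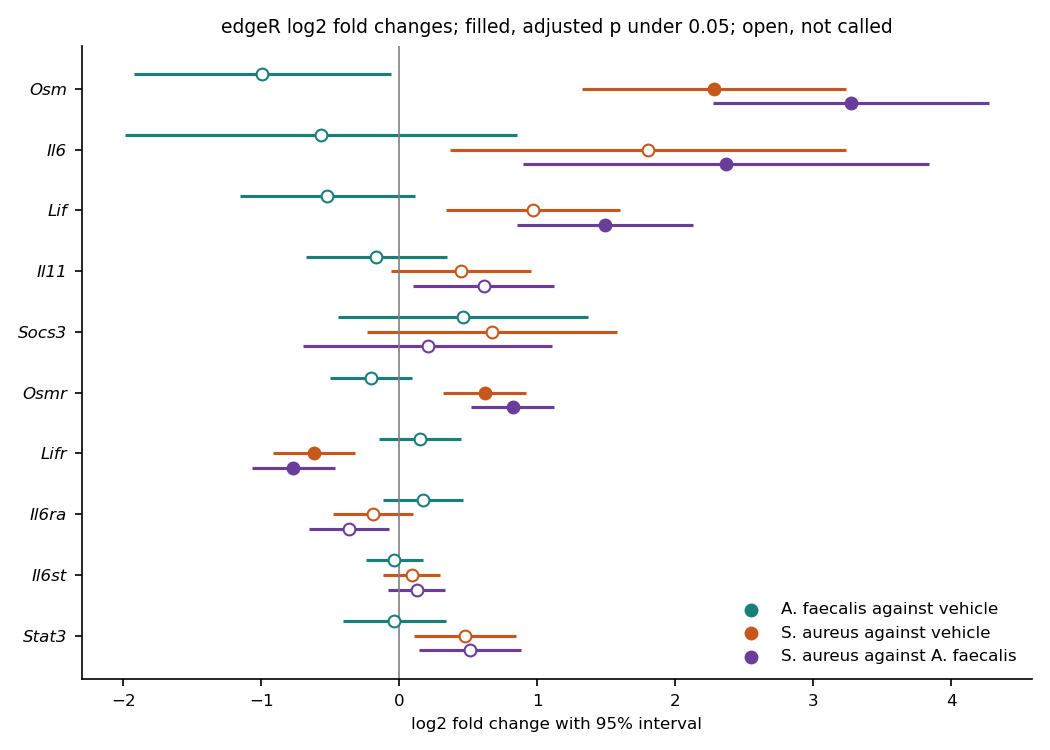
Log2 fold change with 95% interval (horizontal axis) of the 10 genes in the 3 comparisons, filled where the adjusted p was under 0.05. Osm, Il6, Lif and Osmr are filled to the right and Lifr to the left for S. aureus against A. faecalis, and no A. faecalis against vehicle point is filled.

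To compare levels between genes, CPM was divided by the length in kb of the longest protein-coding transcript of each gene (GENCODE M21, GRCm38), which takes no account of which isoforms were made. In vehicle wounds Socs3 was highest at 127 ± 82.5 CPM per kb, followed by Il6st at 64.3 ± 4.71 and Stat3 at 62.4 ± 17.8, with overlapping ranges. Lifr at 26.5 ± 4.91 and Osmr at 24.4 ± 3.77 CPM per kb overlapped each other and lay below those 3. Osm followed at 11.3 ± 7.61, Il6ra at 7.59 ± 1.42, Il6 at 3.98 ± 4.42, Lif at 1.73 ± 0.93 and Il11 at 1.25 ± 0.33 CPM per kb. Neighbours among these last 5 overlapped in their ranges. With S. aureus the level of Osm, 54.9 ± 16.1 CPM per kb, lay above Lifr (17.2 ± 2.5) in all libraries and overlapped Osmr (37.5 ± 1.96). With A. faecalis Osm was at 5.67 ± 1.37 CPM per kb, below Osmr (21.2 ± 3.92) in all libraries.

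Further genes of the pathway were read from lists chosen by function. Of 25 genes listed as STAT3 targets, 24 were tested. With S. aureus 5 of them rose over vehicle and none fell (median log2 fold change 0.55), and 7 rose over A. faecalis and none fell (0.46), where 6.84% and 12.7% of all genes tested were called. With A. faecalis against vehicle edgeR called none, with 0 at an unadjusted p under 0.05 (7.68% of all genes tested), and DESeq2 and limma-voom called none (median -0.07). The lowest p there belonged to Pim3, a kinase, at -0.31 (adjusted p = 0.652 by edgeR) and Reg3g at -0.90 (adjusted p = 0.654). The 3 medians over all genes tested were -0.04, -0.02 and -0.03. Myc, a growth-promoting transcription factor, reached 59.3 ± 3.22 CPM in the S. aureus group, with 34.2 ± 6.34 CPM in vehicle and 34.0 ± 1.5 CPM in A. faecalis wounds. Its log2 fold changes were 0.80 over vehicle (adjusted p = 0.00776 by edgeR) and 0.80 over A. faecalis (0.00182), and both calls held without any 1 of the 12 libraries. Fos, a component of AP-1, rose by 1.30 over vehicle (adjusted p = 0.0185 by edgeR; 0.06 without S. aureus replicate 3 and 0.0505 without replicate 4) and 1.54 over A. faecalis (0.00403).

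Vegfa, the main endothelial growth factor, rose by 1.04 over vehicle (adjusted p = 0.0241 by edgeR; lost without S. aureus replicates 2, 3 or 4, up to 0.0716) and 1.15 over A. faecalis (0.00806). Lrg1, a secreted glycoprotein of the acute phase, rose by 0.54 over vehicle (adjusted p = 0.0353 by edgeR) and 0.74 over A. faecalis (0.00535). Reg3g, an antimicrobial lectin, rose by 1.70 over vehicle (adjusted p = 0.0415 by edgeR) and 2.60 over A. faecalis (0.00475), from 1.30 ± 0.51 to 7.85 ± 3.22 CPM in the latter. Against vehicle the Lrg1 call was lost without any 1 of 7 libraries (vehicle 1 and 2, A. faecalis 2 and each S. aureus library; adjusted p up to 0.0879). The Reg3g call was lost without any 1 of 8 (the same and A. faecalis 3; up to 0.0921). With the replicate number as a block the adjusted p over vehicle was 0.066 for Lrg1 and 0.065 for Reg3g. Junb, the AP-1 partner, and Cebpd rose over A. faecalis by 1.30 and 0.61 (adjusted p = 0.032 and 0.0472 by edgeR). The Junb call was lost without A. faecalis 1, 3 or 4 or S. aureus 2, 3 or 4 (up to 0.0892). The Cebpd call was lost without any 1 of the 8 libraries compared (up to 0.103), with upper-quartile scaling (0.0528) and with no filter on low counts (0.0541). The list count over vehicle was 1 without S. aureus replicates 3 or 4 each, 2 without S. aureus replicate 2 and 3 without vehicle replicate 1 or A. faecalis replicate 2. Among all genes, omitting S. aureus replicates 2, 3 or 4 gave 451 of 18401, 260 of 18412 and 381 of 18416 called over vehicle. Omitting vehicle replicate 1 gave 672 of 18391, and omitting A. faecalis replicate 2 gave 968 of 18400. With only the 2 groups fitted the list count was 1 (Myc) over vehicle, where 350 of 17806 genes were called. Over A. faecalis it was 12, where 3459 of 17849 genes were. DESeq2 gave 8 over vehicle, where it called 2876 of 18218 genes. In the 2-group fit by edgeR, Fos, Vegfa, Lrg1 and Reg3g had adjusted p of 0.0563, 0.0635, 0.0918 and 0.0833 over vehicle.

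Inhibitors of the pathway moved unevenly. Of 10 tested, 2 rose (Socs1 and Cish) and 2 fell (Ptpn6 and Pias1) with S. aureus relative to A. faecalis, 1 rose relative to vehicle (Socs1), and none was called for A. faecalis against vehicle by edgeR, DESeq2 or limma-voom. Over all genes tested 12.7%, 6.84% and 0.011% were called in these comparisons. List medians were -0.05, 0.05 and -0.07 in that order. Socs1, a relative of Socs3 known as the brake on interferon signalling, rose by 1.25 over A. faecalis (adjusted p = 0.0175 by edgeR; 0.0534 without S. aureus replicate 3) and 1.09 over vehicle (0.0469). The latter call was lost without any 1 of 8 libraries (vehicle 1, 3 and 4, A. faecalis 3 and each S. aureus library; up to 0.13), with only the 2 groups fitted (0.0559) and with no filter on low counts (0.0531). Cish, best known downstream of STAT5, had a level of 25.0 ± 2.79 CPM in S. aureus wounds against 12.02 ± 1.51 CPM in A. faecalis wounds (log2 fold change 1.06, adjusted p = 0.00985 by edgeR). Ptpn6, the phosphatase SHP-1 of blood cells, was at 105 ± 12.9 CPM against 236 ± 65.0 CPM (-1.16, adjusted p = 0.0224). Its call was lost without A. faecalis 2 or 4 or S. aureus 1, 2 or 4 (up to 0.065). Pias1, an inhibitor of activated STATs, fell by 0.28 (adjusted p = 0.0325 by edgeR), a call lost without the same 5 libraries (up to 0.0954) and with the replicate number as a block (0.0604). For A. faecalis against vehicle 4 of the 10 had an unadjusted p under 0.05, where 7.68% of all genes tested had one; Cish was at -0.59 (adjusted p = 0.587 by edgeR) and Ptpn6 at 0.77 (adjusted p = 0.591).

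Of 9 kinases, STATs and sheddases, none was called for A. faecalis against vehicle by edgeR, DESeq2 or limma-voom, with 1 at an unadjusted p under 0.05 (7.68% of all genes tested), Jak3. This kinase of lymphocyte cytokine receptors was at 0.26 (adjusted p = 0.536 by edgeR). Adam17, which can shed the IL-6 receptor from cells, was at 0.42 over vehicle with S. aureus (adjusted p = 0.322) and 0.47 with A. faecalis (adjusted p = 0.682), both by edgeR. In the comparison with vehicle the list median was 0.18 with S. aureus and 0.05 with A. faecalis.

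Of 9 further ligands of the family, 7 were tested. Il27, a subunit of interleukin-27, rose with S. aureus over A. faecalis (2.65 ± 0.79 against 1.13 ± 0.19 CPM, log2 fold change 1.23, adjusted p = 0.0261 by edgeR). That call was lost without A. faecalis 1, 2 or 3 or S. aureus 2 or 3 (up to 0.0784). Between the bacteria 1 of the 7 was thus called by edgeR, near the 12.7% of all genes tested. Against vehicle edgeR called none of the 7 with S. aureus (6.84% of all genes tested) or A. faecalis (0.011%). DESeq2 called 1 for S. aureus against vehicle, where it called 2876 of 18218 genes. At an unadjusted p under 0.05 there were 2 of the 7 for S. aureus against vehicle, near the 27% of all genes tested, and 0 for A. faecalis against vehicle (7.68%). Il27 was at 0.73 over vehicle with S. aureus (adjusted p = 0.16). Lep, which encodes leptin and is made by adipocytes, was at -2.29 with S. aureus against vehicle (adjusted p = 0.0585 by edgeR) and -1.19 with A. faecalis (adjusted p = 0.682). These values rest on vehicle replicate 3, the library with the highest adipocyte sum. Lep was at 227 to 2207 CPM with vehicle (median 363 CPM), 279 to 474 CPM with A. faecalis and 101 to 282 CPM with S. aureus. Without vehicle replicate 3 the log2 fold changes were -0.96 with S. aureus (adjusted p = 0.127 by edgeR) and 0.14 with A. faecalis (0.964). The S. aureus value was called by DESeq2 (0.03) and without vehicle replicate 2 or 4 (0.0396 and 0.0407). Ebi3, the other interleukin-27 subunit, was at 0.98 with A. faecalis against vehicle (adjusted p = 0.684). With S. aureus against A. faecalis, where Il27 rose, Ebi3 was at -1.77 (adjusted p = 0.0607 by edgeR), with 11.5 ± 1.64 against 39.2 ± 20.6 CPM and no overlap. That value was called by DESeq2 (0.00719), with only the 2 groups fitted (0.0108) and without vehicle replicate 3 or 4 or A. faecalis replicate 1 (0.0161, 0.041 and 0.0414). Of 6 further receptors, 5 were tested. With S. aureus against vehicle 1 of the 5 was called by edgeR, where 6.84% of all genes tested were. Il27ra, the interleukin-27 receptor, rose with S. aureus over vehicle (2.77 ± 0.39 against 1.71 ± 0.36 CPM, log2 fold change 0.70, adjusted p = 0.0447 by edgeR), a call lost without any 1 of 11 libraries, all but vehicle replicate 1 (up to 0.107). It was also lost with the replicate number as a block (0.0678), with upper-quartile scaling (0.0572), with no filter on low counts (0.0575) and with only the 2 groups fitted (0.102). No receptor was called between the bacteria by edgeR, DESeq2 or limma-voom, with 0 at an unadjusted p under 0.05 (28.2% of all genes tested); Il27ra was at 0.28 and Il11ra1, the interleukin-11 receptor, at 0.14. With A. faecalis against vehicle none was called by any of the 3 tools and 2 of the 5 had an unadjusted p under 0.05 (7.68% of all genes tested), Il11ra1 at -0.26 (adjusted p = 0.57 by edgeR) and Il27ra at 0.42 (adjusted p = 0.636). Lepr, the leptin receptor gene, was at -0.32 with S. aureus and -0.09 with A. faecalis against vehicle, neither called.

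**Figure D5:**
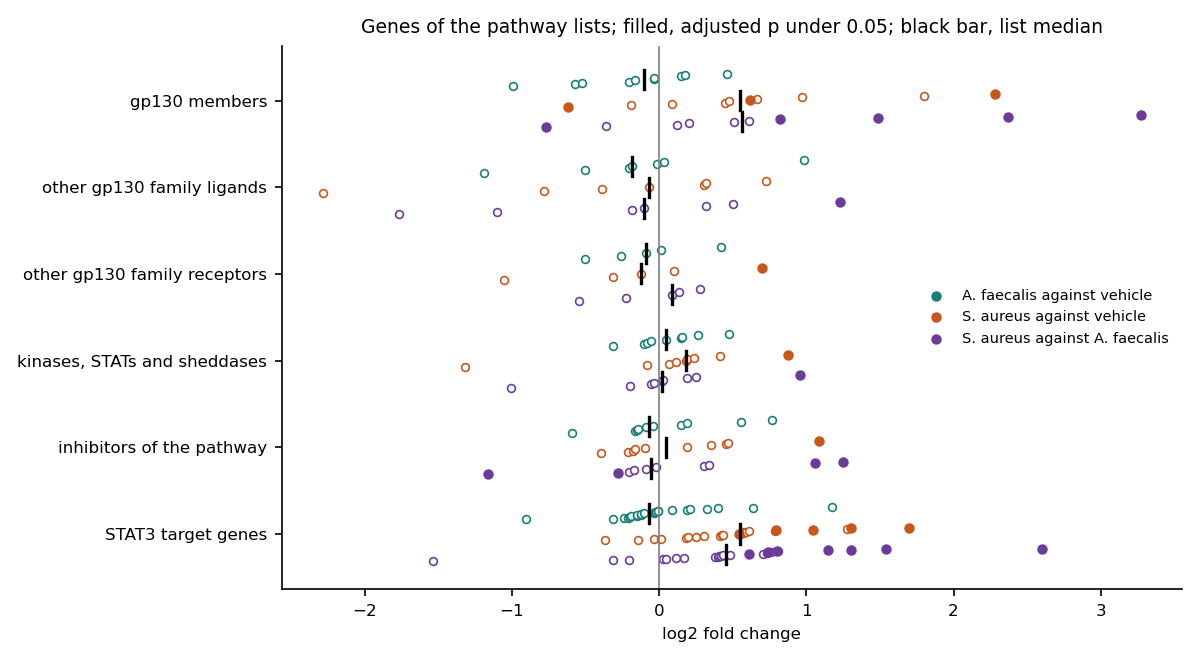
Log2 fold change (horizontal axis) of every tested gene of the 10 members and the 5 further pathway lists in the 3 comparisons, 1 point per gene, filled where the adjusted p was under 0.05, with a black bar at each list's median. In the STAT3 target list 5 points are filled for S. aureus against vehicle and 7 for S. aureus against A. faecalis, all to the right of 0.

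Genes with the pattern most like a member were found by the root-mean-square difference of log2 CPM profiles over the 12 libraries, after subtracting each gene's mean, among 13893 genes. The 3 closest to Osm were Rdh12, a retinol dehydrogenase (0.33), Slc2a3, a glucose transporter (0.42), and Rab44 (0.45). The 3 closest to Il6 were Cxcl1, a neutrophil-attracting chemokine (0.50), Tnfsf11, the RANK ligand (0.54), and Ptgs2, the inducible cyclooxygenase (0.55). Among the closest to Socs3 were Plscr1, a phospholipid scramblase (0.18), and Csf3r, the granulocyte colony-stimulating factor receptor (0.18). Csf3r stands on the neutrophil list. It was at 323 ± 198 CPM with vehicle, 505 ± 184 CPM with A. faecalis and 598 ± 83.4 CPM with S. aureus. Rdh12 was at 63.6 ± 49.4, 36.4 ± 11.2 and 245 ± 72.2 CPM, and Ptgs2 at 193 ± 134, 149 ± 67.2 and 723 ± 212 CPM, in the same order. These 12 libraries share 3 treatments, so the likeness includes the difference between them.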

How the data were processed

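Values are the authors' estimated counts for each gene, as deposited, and were made from ribosome-depleted, strand-specific total RNA libraries, per the labels' protocols; their library totals differ. The submitters' processing notes name FastQC 0.12.1, kallisto 0.48.0, R 4.1.3, DESeq2 1.34.0 and build GRCm39, without roles. The step from transcripts to genes and the strand setting are not given in the sources used here. Of 29957 entries, 1 had no gene name (0.00909% to 0.0151% of a library) and was left out. Counts were rounded before testing. Libraries of a group differed by more than sampling noise (chi-square per degree of freedom 28.0 to 460).

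EdgeR 4.0.16 in R 4.3.3 fitted all 12 libraries with a mean per group (TMM; filterByExpr, minimum count 10, minimum total 15; robust quasi-likelihood test, two-sided). The SE is the log2 fold change divided by the square root of F. The steps were tested on simulated data. Each library is read as 1 mouse, per the design text. Alternatives were other scalings, DESeq2 1.42.0, limma-voom (limma 3.58.1), other filters, a 2-group fit, a threshold of 0.1, a replicate block and leaving out each library.

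The members and lists were chosen with earlier results of these data known. All 10 members are given, with up to 4 called genes of each further list per comparison by smallest adjusted p (where none was called, 1 or 2 by smallest p), and the 3 nearest profiles of Osm, Il6 and Socs3. Some genes that this rule names are not reported here. Lepr, Adam17, the ratio of Osmr to Lifr and called STAT3 targets beyond the fourth were added after their values were seen. A listed macrophage gene, Adgre1, stands in the table under its older name Emr1.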

Additional observations from a re-analysis of the deposited data

Results flagged for a closer look

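For 5 genes the responses to the bacteria differed. The test of that difference is the comparison of S. aureus with A. faecalis, since the vehicle level cancels. The response to S. aureus less that to A. faecalis was 3.27 on the log2 scale for Osm, 2.37 for Il6, 1.49 for Lif, 0.82 for Osmr and -0.77 for Lifr. It held for Osm, Osmr, Lif and Lifr under every alternative run, the 12 fits without 1 library among them, and for Il6 it was lost without any 1 of the 8 A. faecalis and S. aureus libraries (adjusted p up to 0.107 by edgeR). In no group of 4 did a library of the 10 genes stand far enough from the others to pass Dixon's 95% limit. Vehicle replicate 2 in Lif came closest, with a gap of 0.78 of the range (12.4 CPM, the others 4.31 to 6.08 CPM).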

How the results depend on the processing

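The count of members called for S. aureus against vehicle, 3, became 5 with DESeq2, 5 with limma-voom and 1 with only the 2 groups fitted, and ranged from 0 to 5 without 1 library. Over all genes tested the count, 1246, became 2876, 1278 and 350 in that order, and ranged from 260 to 1750 without 1 library. The count of members for S. aureus against A. faecalis, 5, was 4 to 7 under all alternatives run, and that for A. faecalis against vehicle was 0 in each. Over all genes tested these 2 counts ran from 1313 to 3650 and from 2 to 120. Log2 fold changes changed sign only for A. faecalis against vehicle, in genes never called there. With limma-voom, Il6 was at 0.18 and Stat3 at 0.0066. Without 1 library, Il6 ranged from -0.93 to 0.56, Il6st from -0.088 to 0.023, Il11 from -0.30 to 0.011, Stat3 from -0.17 to 0.12, Lep from -1.47 to 0.14 and Lepr from -0.187 to 0.018. Lists and genes outside the 10 members were run under these alternatives by a choice made after seeing the data. The cause was not tested. Replicate numbers are shared between groups. Deviations of the 12 same-numbered pairs were correlated at -0.21 to 0.18, with 3 above 0.1. Those 3 were pairs of vehicle and A. faecalis, replicates 2, 3 and 4 (0.18, 0.15 and 0.17). No pairing is stated, and such correlations cannot show that there was none. With the replicate block, 3 members were called for S. aureus against vehicle, 4 between the bacteria (Il6 lost) and 0 for A. faecalis against vehicle. Over all genes tested it was 1038, 2120 and 2 in that order. With 4 mice a group the precision is limited: the Socs3 interval between the bacteria ran from -0.70 to 1.11.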
